A study of Drosophila melanogaster with 9 samples.

Results

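Adult Kenyon cells were compared with adult olfactory projection neurons of the Drosophila brain, gene by gene, from a deposited table of FPKM values (read fragments scaled by transcript length and by library depth). A gene was kept when its mean over the 3 adult columns, which are Kenyon cells (KC), projection neurons (PN) and cells negative for both labels (double negative, DN), was at least 1 FPKM. Of the 16859 lines of the table, 8515 genes were kept, 7668 of them protein coding. At the edge of this filter, CG18537 was kept with a mean of 1.0004 FPKM (0.340 in KC and 1.73 in PN), and CG2310 was left out with 0.9998 (0.566 and 0.919).

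All cells came from flies of 1 genotype, in which GH146:Gal4>UAS:tomato over the balancer CyO marked projection neurons and MB247:LexA>LexAop:GFP over TM2 marked Kenyon cells. Brains of males and females were pooled, the optic lobes were cut off, and dissociated cells were sorted by flow cytometry into GFP cells (KC), tomato cells (PN) and unlabelled cells (DN). The age of the adults is not given in the labels, and a second stage, 45 h after puparium formation (45 h APF), has 1 pooled library per cell type. Each adult cell type has 2 libraries in the labels, and the table holds the authors' average of them. Each adult value below is therefore a single mean with no error, no p-value was computed, and differences are sizes. Both drivers set what a population is: MB247 is known to label many but not all Kenyon cells, and GH146 is known to label most but not all projection neurons, among them inhibitory ones, and also a large inhibitory neuron of the mushroom body.

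Projection neurons carry odor signals from the glomeruli of the antennal lobe to the mushroom body calyx and the lateral horn, and most of them release acetylcholine. Kenyon cells, whose axons form the mushroom body lobes, receive those signals in the calyx through acetylcholine receptors, and are the cells in which dopamine and cyclic AMP signalling store olfactory memories. Kenyon cells also release acetylcholine, together with the short neuropeptide F encoded by sNPF.

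Differences are given as KC minus PN of log2(FPKM + 1), so that a difference of 1 on this scale is 2-fold and the change of low genes is understated. Where 3 levels follow a gene they stand in the order KC, PN and DN, and a single signed value after them is this difference. The adult columns sum to 720834 FPKM (KC), 704373 (PN) and 611610 (DN), and 7746, 8526 and 8331 genes reached 1 FPKM. Defining markers of fat body, muscle, trachea and photoreceptors summed to 1.40 FPKM or less in both columns, and of the 4 hemocyte markers only Pxn was above 1 FPKM (103 in KC and 62.3 in PN) while Hml, NimC1 and srp were at or near 0. Of the 17 glial genes 10 passed the filter, and the whole list summed to 206 FPKM in KC against 172 in PN and 418 in DN. Its members included repo, which sets glial fate, at 0.480 and 0.347 FPKM in KC and PN, Eaat1 (7.61 and 3.94), alrm (8.04 and 3.52) and Obp44a (10.4 and 4.67), and the highest were Gs2 (61.2 and 94.1) and nrv2. The part of glial RNA in the adult results was not tested. The 9 markers of other neurons summed to 83.5 FPKM in KC against 869 in PN and 1423 in DN. Of these sums Gad1 alone held 25.1, 762 and 994 FPKM. At 1 FPKM or more were 6 of the 9 in KC, 4 in PN and 9 in DN. Gene length moved with the comparison: the median difference was 0.27 in the second of 5 equal groups by exon length and -0.64 in the longest group (4124 to 69810 bases), where 15.7% of genes were lower in KC by 4-fold or more. In this longest group the median of PN minus DN was 0.77, that of KC minus DN was 0.18, and that of KC minus PN at 45 h APF was -0.01. The part of length in the results below was not tested. Values with each length group's own median subtracted are given where they change the sign or side of 2-fold of lists and genes described here. They stand beside the list or gene, or, for the TGF-beta and the Notch and Wnt lists, in the section on processing.

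Over all kept genes the median difference was 0.01, and 68.0% of genes lay within 2-fold of each other. At least 4-fold higher in Kenyon cells were 223 genes, which is 2.62% of those kept, and 690 were at least 4-fold lower, which is 8.10%. Past 2-fold were 1030 genes (12.1%) higher in KC and 1696 (19.9%) lower. In such pooled columns, fewer cells of a type and less RNA per cell cannot be told apart. The imbalance kept its direction at larger sizes but became smaller in proportion. At least 8-fold higher were 120 genes and 289 lower, at least 16-fold 62 and 131, and at least 32-fold 40 and 63. Of the 223 genes 59 were listed at 0 in PN, and of the 690 genes 110 were listed at 0 in KC. Whether such a zero stands for absence or for an estimate that failed was not tested, so no fold is printed for them. Many genes also share their locus in the table with another gene (118 of the 223 and 423 of the 690), and the reads of overlapping genes cannot be told apart where the counting does not use strand.

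**Figure D1:**
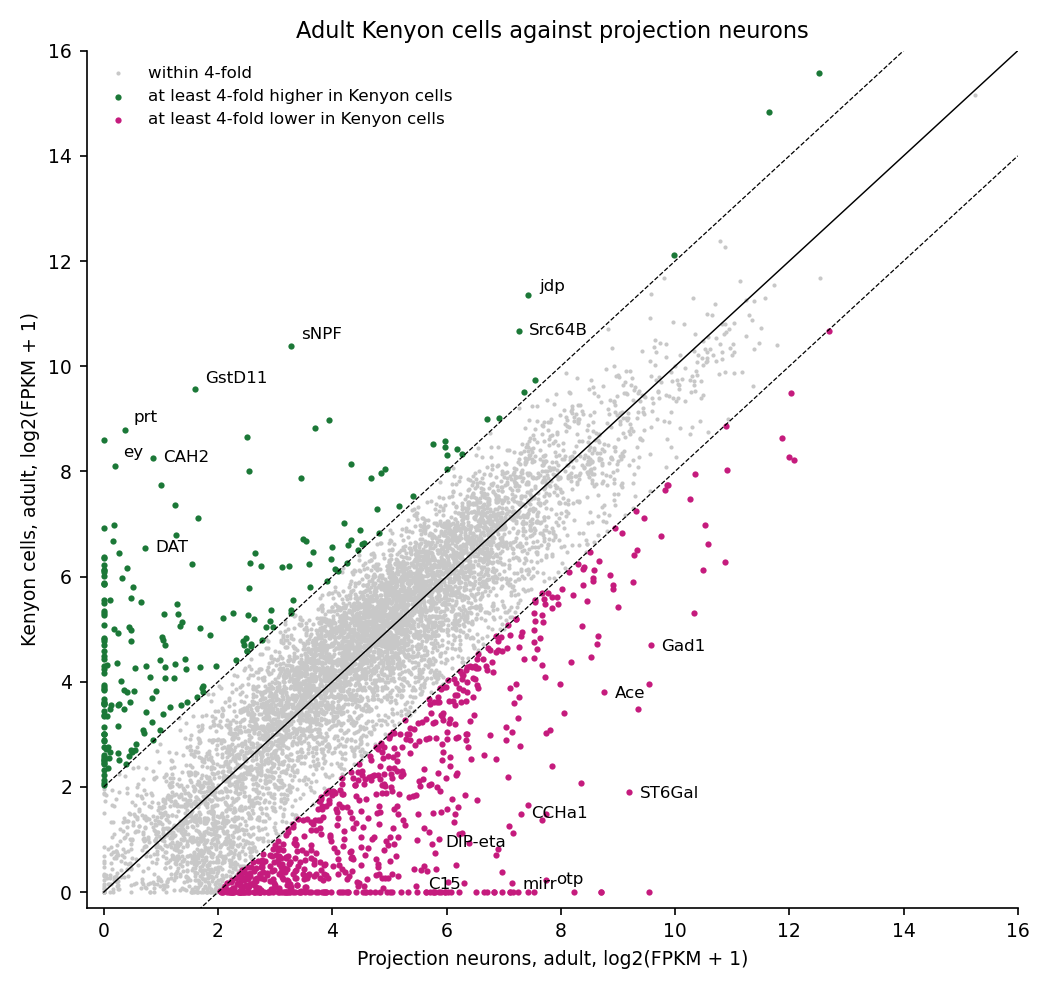
Adult level of each kept gene in projection neurons (x axis) and Kenyon cells (y axis), both as log2(FPKM + 1), 1 point per gene; the solid line is equality and the dashed lines are 4-fold. The 690 magenta points below the lower dashed line outnumber the 223 green points above the upper one, and sNPF stands out among the green points for its level of 1343 FPKM in Kenyon cells.

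Genes that define the 2 cell types were compared first. Some Kenyon cell factors, such as ey and Hr51, stood far above projection neurons in the adult, and most projection neuron genes far below. The widest gaps were those of single transcription factors, transporters and a neuropeptide, while several genes usually cited for Kenyon cells did not set the 2 populations apart. Of 24 Kenyon cell genes, 10 were higher in KC by 2-fold or more and 5 at least 2-fold lower, with a median of 0.58. The eyeless gene ey (fly Pax6) stood at 275 FPKM in KC against 0.143 in PN and 7.58 in DN, a difference of 7.92. Its relative toy stood at 263, 29.2 and 46.9 FPKM (3.13). Hr51, a nuclear receptor of mushroom body neurons, was at 126 FPKM in KC against 0.128 in PN and 3.87 in DN. It lies on chromosome 2R (15331325 to 15339384), in dm6 coordinates of the RefSeq annotation, as below. For prt, a vesicular transporter-like gene of Kenyon cells, the difference was 8.41, the highest of all genes above 0 in both columns. The co-chaperone gene jdp was at 2614, 172 and 498 FPKM across KC, PN and DN (3.92). These named genes stood higher in the GFP column, while other genes of the list did not. The list was chosen with earlier results of these data known, so it is no independent check of the sort.

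Other Kenyon cell genes stood level between the 2 populations and above DN in both. Mef2, a transcription factor of Kenyon cells, was at 125 FPKM in KC against 112 in PN and 14.4 in DN. The adhesion gene Fas2, which marks part of the mushroom body lobes, was at 78.7, 96 and 25.6 FPKM, a difference of -0.28 that became 0.35 after the median of its length group was subtracted. The gene trio, a guanine exchange factor of growing axons, was at 134, 105 and 23.5 FPKM. The 5 genes lower in KC by 2-fold or more were chinmo (4.16 against 32.8 FPKM), mamo (13 against 81.5), dnc (28.6 against 137), rn (1.74 against 7.81) and pros (61.0 against 153, a difference of -1.31 that became -0.67 with the length group's median subtracted). All but dnc encode transcription factors, and chinmo and mamo are known for the timing of Kenyon cell fates during development. With the length group's median subtracted the list median was 1.22 in place of 0.58.

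For projection neurons, 15 of 18 kept marker genes were lower in KC by 2-fold or more and none higher, with a median of -2.88. The homeobox gene otp (chromosome 2R, 20883625 to 20903414) stood at 0.176 FPKM in KC against 212 in PN and 12.4 in DN, a difference of -7.50 and the lowest of all genes above 0 in both columns. Oaz, a zinc finger gene now named L, was listed at 0 in KC, with 172 FPKM in PN and 0.255 in DN. The POU factor acj6 was at 0.0903 FPKM in KC against 43.2 in PN and 5.87 in DN (-5.34), the homeobox gene unpg at 0.0501, 28.6 and 2.03 (-4.82) and C15 at 0.128, 77.8 and 5.60 (-6.13). All 5 were lower in DN than in PN, whereas the POU factor vvl was about level between PN (5.74 FPKM) and DN (5.24). The wiring genes of the list that follow did not differ by 2-fold: caps was at 22.8 and 22.2 FPKM in KC and PN, Toll-7 at 12.8 and 10.3, and trn at 6.70 and 11.7.

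The wider transcription factor lists leaned the same way. Of 67 homeobox and LIM genes only 42 passed the filter, and of these 23 were lower in KC by 2-fold or more and 5 higher (median -1.18, but -0.52 with a pseudocount of 5 and -0.97 with quantile normalization). After otp the lowest was mirr, an Iroquois homeobox gene, at 0.133 FPKM in KC against 141 in PN and 7.79 in DN. The LIM homeobox gene tup was at 0.139 FPKM in KC against 64.5 in PN. The highest after ey were Vsx1, a homeobox gene known from the visual system, at 13.4, 0.274 and 3.64 FPKM, and toy. Several homeobox genes stood in DN alone at more than 10 FPKM, such as CG4328, at 0.636 and 0.183 FPKM in KC and PN and 23.6 in DN, a gene chosen after its values were seen. Among 48 kept members of other transcription factor families 23 were lower and 2 were higher, with a median of -0.77. The 2 that were higher were Hr51 and dac, a co-factor of Pax6 genes, at 86.0, 5.29 and 7.82 FPKM (3.79). Among the lower were kn, an early B cell factor relative, at 0.268, 32 and 9.03 FPKM (-4.70), and bab2 at 0.411, 15.2 and 14.0 (-3.52).

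Transmitter genes came next. None of the 15 genes of acetylcholine, GABA and glutamate handling was higher in KC by 2-fold or more and 7 were lower (median -0.78). Ace, the esterase that ends acetylcholine signals (chromosome 3R, 13222951 to 13259517), was at 13 FPKM in KC against 432 in PN and 38.5 in DN, a difference of -4.94. ChAT, the enzyme of acetylcholine synthesis, was at 89.8, 648 and 171 FPKM (-2.84), and VAChT, which loads it into vesicles and shares the ChAT locus, at 40.4, 135 and 15.5 (-1.72, chosen after its values were seen). In FPKM, these acetylcholine genes thus stood lower in Kenyon cells than in projection neurons. The GABA-making enzyme gene Gad1 was at 25.1 FPKM in KC against 762 in PN and 994 in DN (-4.87), while the vesicular GABA transporter VGAT was at 46.1, 75.9 and 90.0 (-0.71). GH146 is known to label GABA neurons too, and whether these cells carry the Gad1 level of the PN column was not tested.

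Monoamine genes split by member. Of 12 kept genes 3 were higher in KC by 2-fold or more and 2 lower, with a median of 0.39. DAT, the dopamine transporter (chromosome 2R, 16558567 to 16565238), stood at 92.8 FPKM in KC against 0.652 in PN and 75.4 in DN (5.83). Its level in KC was not joined by ple, which makes dopamine's precursor and stood at 1.03, 0.274 and 13.3 FPKM, or by the vesicular transporter Vmat at 5.43, 6.86 and 123. On the other side, Ddc, a decarboxylase of dopamine and serotonin synthesis, was at 158 FPKM in KC against 613 in PN and 361 in DN (-1.95). Tbh, which makes octopamine, was at 1.46, 27.1 and 27.6 FPKM (-3.51).

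Neuropeptide genes differed by single members rather than as a list. Of 43 genes 28 were kept, 7 were higher in KC by 2-fold or more and 6 lower, and the median was 0.28. Both populations lay below DN: the list median was -3.69 for KC minus DN and -3.73 for PN minus DN. sNPF (chromosome 2L, 20027915 to 20056373) was at 1343 FPKM in KC against 8.68 in PN and 145 in DN, a difference of 7.12 and an FPKM ratio of 155. Its receptor gene sNPF-R (chromosome 3L, 20058511 to 20089007) had the opposite order, with 1.17 FPKM in KC against 76.3 in PN and 18.5 in DN (-5.15, an FPKM ratio of PN to KC of 65.2). In adults, RNA of the peptide gene was thus high in Kenyon cells and RNA of its receptor gene high in projection neurons. Peptide and receptor protein were not measured. Nplp3, a gene for a neuropeptide-like precursor, was at 110 FPKM in KC against 1.40 and 3.34 (5.54). Peptide genes high in PN were CCHa1, at 1.79, 157 and 34.7 FPKM (-5.83), the diuretic hormone gene Dh44 at 2.05, 72.2 and 49.0 (-4.59), and the proctolin gene Proc at 3.04, 45.4 and 51.4 (-3.52). Capa was at 5.75 FPKM in KC, was listed at 0 in PN and stood at 220 in DN.

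Receptors for peptides were mostly low in Kenyon cells. Of 36 kept receptor genes 23 were lower in KC by 2-fold or more and 6 higher, with a median of -1.53 that became -0.59 with a pseudocount of 5. At 5 FPKM or more were 7 of the 36 in KC, 15 in PN and 23 in DN. The allatostatin A receptor AstA-R1 was the lowest, at 0.357, 55.1 and 11.3 FPKM (-5.37), and the neuropeptide F receptor NPFR stood at 0.338, 13 and 14.9 (-3.39). The 3 highest were Lgr3, a relaxin-like receptor (chromosome 3R, 25665809 to 25677214), at 30.9 FPKM in KC against 0.132 in PN and 1.82 in DN (4.82), the sulfakinin receptor gene CCKLR-17D1 at 31.5, 2.23 and 12.9 (3.33), and hec, a calcitonin-like receptor, at 13.1, 0.450 and 6.02 (3.28).

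Nicotinic acetylcholine receptors, through which Kenyon cells receive projection neuron signals, were mostly lower in the Kenyon cell column than in the projection neuron column. Of 9 kept subunit genes 7 were lower in KC by 2-fold or more and none higher, with a median of -1.93 (-1.29 after subtraction of the length group medians). The order of the KC levels ran from beta2 (244 FPKM), beta1 (212) and alpha2 (119) to alpha3 (0.410). nAChRalpha3 (chromosome X, 8276200 to 8367169, a locus shared by 6 genes) was at 0.410 FPKM in KC against 47.7 in PN and 7.71 in DN (-5.11). nAChRalpha7 stood at 8.89, 152 and 24.8 FPKM (-3.95). nAChRbeta1, the most abundant subunit in PN, was at 212, 936 and 295 FPKM (-2.14), and alpha5, alpha4, alpha6 and alpha1 differed by -2.06, -1.93, -1.59 and -1.24. With the length group's median subtracted nAChRalpha6 and nAChRalpha1 came to -0.95 and -0.60. Against DN, KC differed by 0.13, 0.43, -0.34 and -0.05 for alpha5, alpha4, alpha6 and alpha1, and PN by 2.19, 2.35, 1.25 and 1.19. For these subunits it was the PN level that stood apart, while for alpha3 and alpha7 KC also lay below DN (-2.63 and -1.39). The other 2 subunits were level, with nAChRalpha2 at 119, 121 and 113 FPKM and nAChRbeta2 at 244, 215 and 239. For both, the 3 populations lay close together.

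Muscarinic receptors, which signal through G proteins, showed smaller gaps: mAChR-A was at 37.0, 48.5 and 32.9 FPKM across KC, PN and DN and mAChR-B at 43.4, 24 and 15.9, differences of -0.38 and 0.83 (0.26 and 1.47 with the length group's median subtracted). Of 10 kept genes of muscarinic and Gq signalling 5 were at least 2-fold lower and 1 higher (median -0.85). The lower ones were the phospholipase gene norpA (6.43 against 131 FPKM), the diacylglycerol kinase rdgA (1.91 against 21.8), Pkc98E (88.0 against 347), rdgB (23.2 against 74.7) and the IP3 receptor gene Itp-r83A (2.08 against 6.67; -1.32, or -0.68 with the length group's median subtracted). The higher one was the protein kinase C gene Pkc53E, at 98.7 FPKM in KC against 27.8 in PN and 25.5 in DN (1.79).

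Inhibitory receptors split by subunit. Of 11 kept genes for receptors of GABA and other chloride channels 6 were lower in KC by 2-fold or more and none higher (median -1.41, or -0.42 with a pseudocount of 5). Rdl, the main GABA-gated channel, was at 71.8 FPKM in KC against 337 in PN, with 73.1 in DN (-2.22), and the glutamate-gated GluClalpha at 69.0, 381 and 102 (-2.45). Of the GABA-B receptor genes, R1 stood at 22.1, 93.1 and 15.9 FPKM (-2.03) and R3 at 0.496, 12.8 and 16 (-3.20). R2 was at 178, 141 and 146 FPKM (0.33), and Lcch3, another channel subunit, at 127, 119 and 129 (0.09, and -0.15 with the length group's median subtracted). R1 and R2, the 2 subunits that make a working GABA-B receptor, thus had unequal gaps. Their levels lay closer together in PN than in KC or DN.

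Glutamate receptors went both ways, with 2 of 8 higher in KC by 2-fold or more, 3 lower and a median of -0.03 (0.28 with the length group medians subtracted). The metabotropic receptor mGluR was at 29.9 FPKM in KC against 158 in PN and 19.4 in DN (-2.36). The NMDA receptor subunits followed, Nmdar1 at 26.3, 93.2 and 37.4 FPKM (-1.79) and Nmdar2 at 27.8, 70.1 and 29.2 (-1.30, or -0.67 with the length group's median subtracted). The ionotropic subunits GluRIA (64, 23 and 24.6 FPKM, 1.44) and CG5621, now named Grik (20.8 in KC and 7.68 in PN, 1.33), stood higher in KC.

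**Figure D2:**
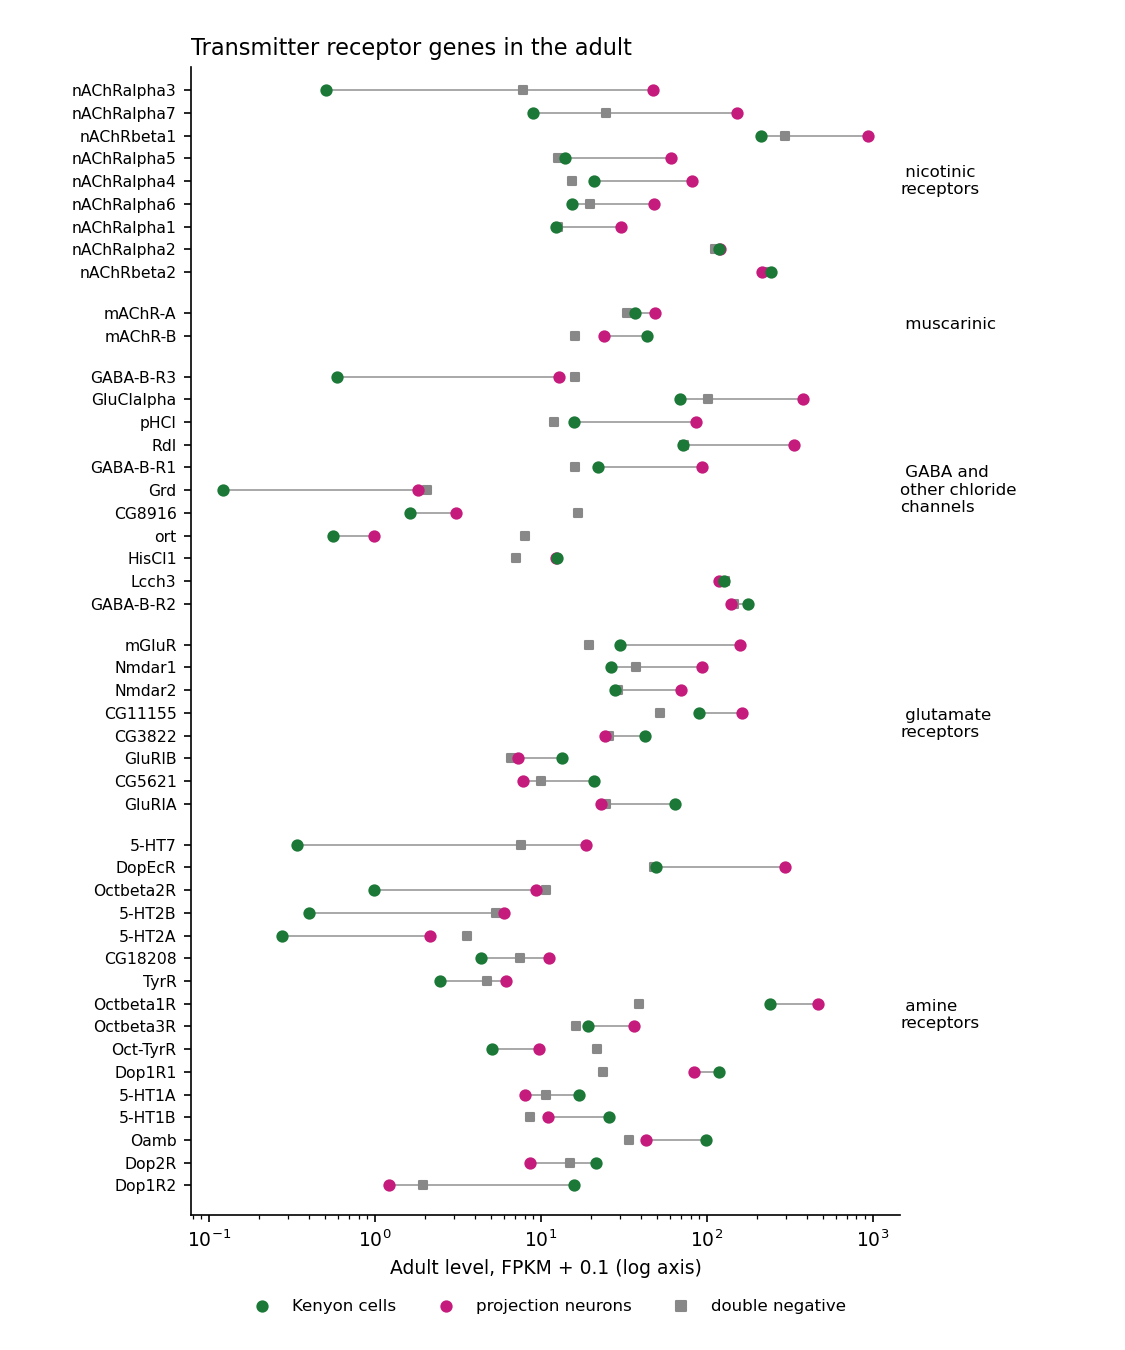
Adult levels of the kept transmitter receptor genes in Kenyon cells, projection neurons and double negative cells, as FPKM + 0.1 on a log axis, 1 row per gene, ordered within each family by the Kenyon cell minus projection neuron difference. Kenyon cell points of nicotinic subunits lie left of the projection neuron points, except nAChRalpha2 and nAChRbeta2, which are level. Among receptors for dopamine, Kenyon cell points of Dop1R2 and Dop2R lie to the right of projection neurons. That of Dop1R1 lies slightly to the right (0.50) and that of DopEcR to the left (-2.56).

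Amine receptors are where dopamine, the teaching signal of the mushroom body, acts on Kenyon cells. Of 16 kept genes 4 were higher in KC by 2-fold or more and 7 lower (median -0.92). Dop1R2, a dopamine receptor known from forgetting, stood at 15.8 FPKM in KC against 1.11 in PN and 1.84 in DN (2.99). Dop2R was at 21.5, 8.5 and 14.9 FPKM (1.25, or 0.98 with a pseudocount of 5), and the octopamine receptor Oamb at 99.1, 43.1 and 34.1 (1.18). Dop1R1, the receptor that learning needs in Kenyon cells, was at 119, 83.7 and 23.8 FPKM, a difference of 0.50, which became 1.14 and so passed 2-fold with the length group's median subtracted. The lowest were the serotonin receptor 5-HT7 at 0.241, 18.7 and 7.48 FPKM (-3.99), the dopamine and ecdysteroid receptor DopEcR at 49.3, 295 and 47.9 (-2.56), and Octbeta2R at 0.893, 9.31 and 10.6 (-2.45).

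The cyclic AMP pathway, in which rut makes the messenger and dnc breaks it down, did not move as 1 block. Of 22 kept genes 3 were higher in KC by 2-fold or more and 11 lower, with a median of -1.03 (-0.72 with the length group medians subtracted). The 3 higher were rut at 78.8 FPKM in KC against 30.7 in PN and 10.8 in DN (1.33), Pka-R1, a regulatory subunit of protein kinase A, at 379, 61.7 and 112 (2.60), and the catalytic Pka-C3 at 28.5, 2.64 and 3.40 (3.02). The main catalytic subunit Pka-C1 was level, at 279, 278 and 32.1 FPKM, and Pka-R2 close to it, at 198, 124 and 15.1 (0.66, or 1.30 with the length group's median subtracted). Both stood above DN in the 2 populations. The phosphodiesterase dnc (chromosome X, 3176440 to 3343767, a locus shared by 10 genes) was at 28.6, 137 and 14.9 FPKM (-2.22). Among the lowest were another phosphodiesterase, Pde11 (0.616, 33.8 and 13.7 FPKM, -4.43), the adenylyl cyclase Ac76E (3.30, 44.7 and 17.1, -3.41) and Nf1, a Ras regulator needed for cyclic AMP signals (3.91, 36.1 and 5.78, -2.92).

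Among 38 kept genes of memory kinases and translation control 5 were at least 2-fold higher and 15 lower (median -0.90). Src64B, a tyrosine kinase of mushroom body axons, was at 1637 FPKM in KC against 153 in PN and 11 in DN (3.41). The radish gene rad, of anaesthesia-resistant memory, stood at 24.4, 8.21 and 12.5 FPKM (1.46). On the low side were jeb, the secreted ligand of the receptor kinase Alk, at 6.90, 107 and 20.7 FPKM (-3.78), the scaffold CASK at 62.2, 378 and 52.0 (-2.58) and the RNA-binding gene cpo at 28.1, 157 and 10.7 (-2.44). Alk itself was at 18.3, 67.5 and 21.3 FPKM (-1.83, chosen after its values were seen).

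Ion channel and release genes were lower in Kenyon cells in large part, and these lists hold long genes. Of 22 pan-neuronal genes 18 were lower in KC by 2-fold or more and none higher, with a median of -2.05 (-1.52 with the length group medians subtracted). The list median was 0.00 for KC minus DN and 1.97 for PN minus DN, so in these columns it was the PN level that stood apart. Among the 4 within 2-fold was elav, the pan-neuronal RNA-binding gene, at 83.4, 91.1 and 36.2 FPKM (-0.12, and 0.51 with the length group's median subtracted). Its relative fne was listed at 0 in KC, with 299 FPKM in PN and 41.7 in DN, although it stood at 34.9 and 33.9 FPKM in KC and PN at 45 h APF. Whether the adult KC value is a failed estimate was not tested.

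Of 21 kept sodium, calcium and leak channel genes 15 were lower and 2 higher (median -1.48). The lowest was the T-type calcium channel Ca-alpha1T, at 1.88, 59.2 and 13.6 FPKM (-4.38), with ppk29 (-3.70) and the voltage-gated sodium channel para next, para at 4.30, 65.4 and 8.43 (-3.65). The higher ones were Teh4, a relative of the sodium channel subunit tipE (25.5, 10.2 and 11 FPKM, 1.25), and the channel Trpm (26.7, 12.0 and 6.72, 1.09). Among potassium channels 10 of 21 were lower and 2 higher (median -0.51). SK, activated by calcium, was at 5.87, 155 and 14.3 FPKM (-4.51), the Shaker subunit Hk at 14.5, 147 and 41.3 (-3.26) and eag at 3.52, 32 and 5.07 (-2.87). Elk, of the same family as eag, had the other sign, at 67.9, 16.1 and 9.89 FPKM (2.01), and so did the leak channel Task7, at 308, 97.4 and 201 (1.65). The families therefore held members on both sides.

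For vesicle release 23 of 39 genes were lower in KC by 2-fold or more and 1 higher (median -1.19). Syx1A, a membrane fusion protein, was at 42.0 FPKM in KC against 510 in PN and 97.3 in DN (-3.57), Sap47 at 108, 859 and 227 (-2.99) and the priming factor unc-13 at 23.7, 190 and 35.9 (-2.95). The 1 higher gene was Sytalpha, a synaptotagmin, at 250, 27.9 and 58.0 FPKM (3.12). Every gene of this list reached 5 FPKM in both columns. Gap junction genes were few: of 5 kept innexins only shakB differed by 2-fold, at 1.87, 27.7 and 3.27 FPKM (-3.33).

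Neuronal RNA-binding genes repeated the pattern, with 15 of 24 lower, 1 higher and a median of -1.43 (-0.98 with the length group medians subtracted). Besides fne the lowest were sm, at 21.1 FPKM in KC against 369 in PN (-4.07), and musashi, msi, at 3.52, 62.9 and 16.9 (-3.82). The splicing regulator mbl (chromosome 2R, 17216549 to 17379376, a locus shared by 9 genes) was lower still, at 1.79, 214 and 32.1 FPKM (-6.27). The 1 higher gene was bru-2, at 12.9 FPKM in KC against 0.332 in PN and 0.122 in DN (3.38). Temporal identity genes, which set the fate of neurons by their time of birth, had 6 of 9 lower and none higher (median -2.03). Imp and Syp, known for opposed gradients in young Kenyon cells, were at 10.8, 8.21 and 2.73 FPKM (0.36) and at 13.6, 58.7 and 19.1 (-2.03). Of 19 kept ecdysone response genes 7 were lower and 3 higher (median -0.73), with br, a target known from metamorphosis, at 2.63, 26.2 and 15.4 FPKM (-2.90). Circadian clock genes had 8 of 20 lower and 1 higher (median -0.61, 0.01 with the length group medians subtracted), led by the transcription factor Pdp1 at 7.08, 80.5 and 11.8 FPKM (-3.33). Activity-regulated genes had 4 of 14 lower and 3 higher (median -0.23).

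By their medians, the DIP, dpr, beat and side, immunoglobulin, cadherin, leucine-rich repeat, teneurin and guidance lists were all lower in Kenyon cells. The DIP proteins bind the dpr proteins, and the side proteins bind the beat proteins, in networks known for matching synaptic partners. Of 11 DIP genes 9 were at least 2-fold lower and none higher, with a median of -2.40. DIP-eta (chromosome 2L, 5601723 to 5617946) was at 0.668 FPKM in KC against 54.8 in PN, with 16.9 in DN, and its neighbour DIP-theta, at a locus shared by 8 genes, at 1.01, 57.7 and 38.3. DIP-beta, DIP-delta and DIP-epsilon differed by -4.45, -4.30 and -4.13, all from KC levels below 1 FPKM. Only DIP-gamma (7.09 FPKM) and CG31814, now DIP-kappa (46.1), reached 5 FPKM in KC. DIP-kappa was at 64.5 FPKM in PN (-0.47), and DIP-gamma had its highest level in DN (56.8 FPKM).

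In the dpr family 12 of 21 were at least 2-fold lower and none higher (median -1.45, and -0.83 with the length group medians subtracted). The KC levels spanned a wide range, from 0.289 FPKM for dpr16 to 231 for dpr21 (both chosen after their values were seen). dpr2 (1.42, 37.5 and 34.7 FPKM, -3.99), dpr11 (1.57, 36.6 and 25.9, -3.87) and dpr13 (0.635, 22.9 and 18.9, -3.87) were the lowest. The 3 with the highest differences were level: dpr5 at 43.0 and 35.8 FPKM in KC and PN, dpr12 at 93.6 and 86.9, and dpr10 at 26.2 and 27.4.

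The beat and side genes had 15 of 21 lower, none higher and a median of -2.83. The 3 lowest were beat-IIIc at 0.978, 43.5 and 33.1 FPKM (-4.49), beat-Ia at 1.32, 47.5 and 18.8 (-4.38) and beat-Ic at 0.887, 32.9 and 20.7 (-4.17). side was at 1.07, 21.8 and 20.4 FPKM (-3.46, chosen after its values were seen). The 1 member above PN was CG42313, now side-II, at 42.4 against 37.4 FPKM (0.17). At 5 FPKM or more were 10 of the 21 genes in KC and all 21 in PN and in DN.

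**Figure D3:**
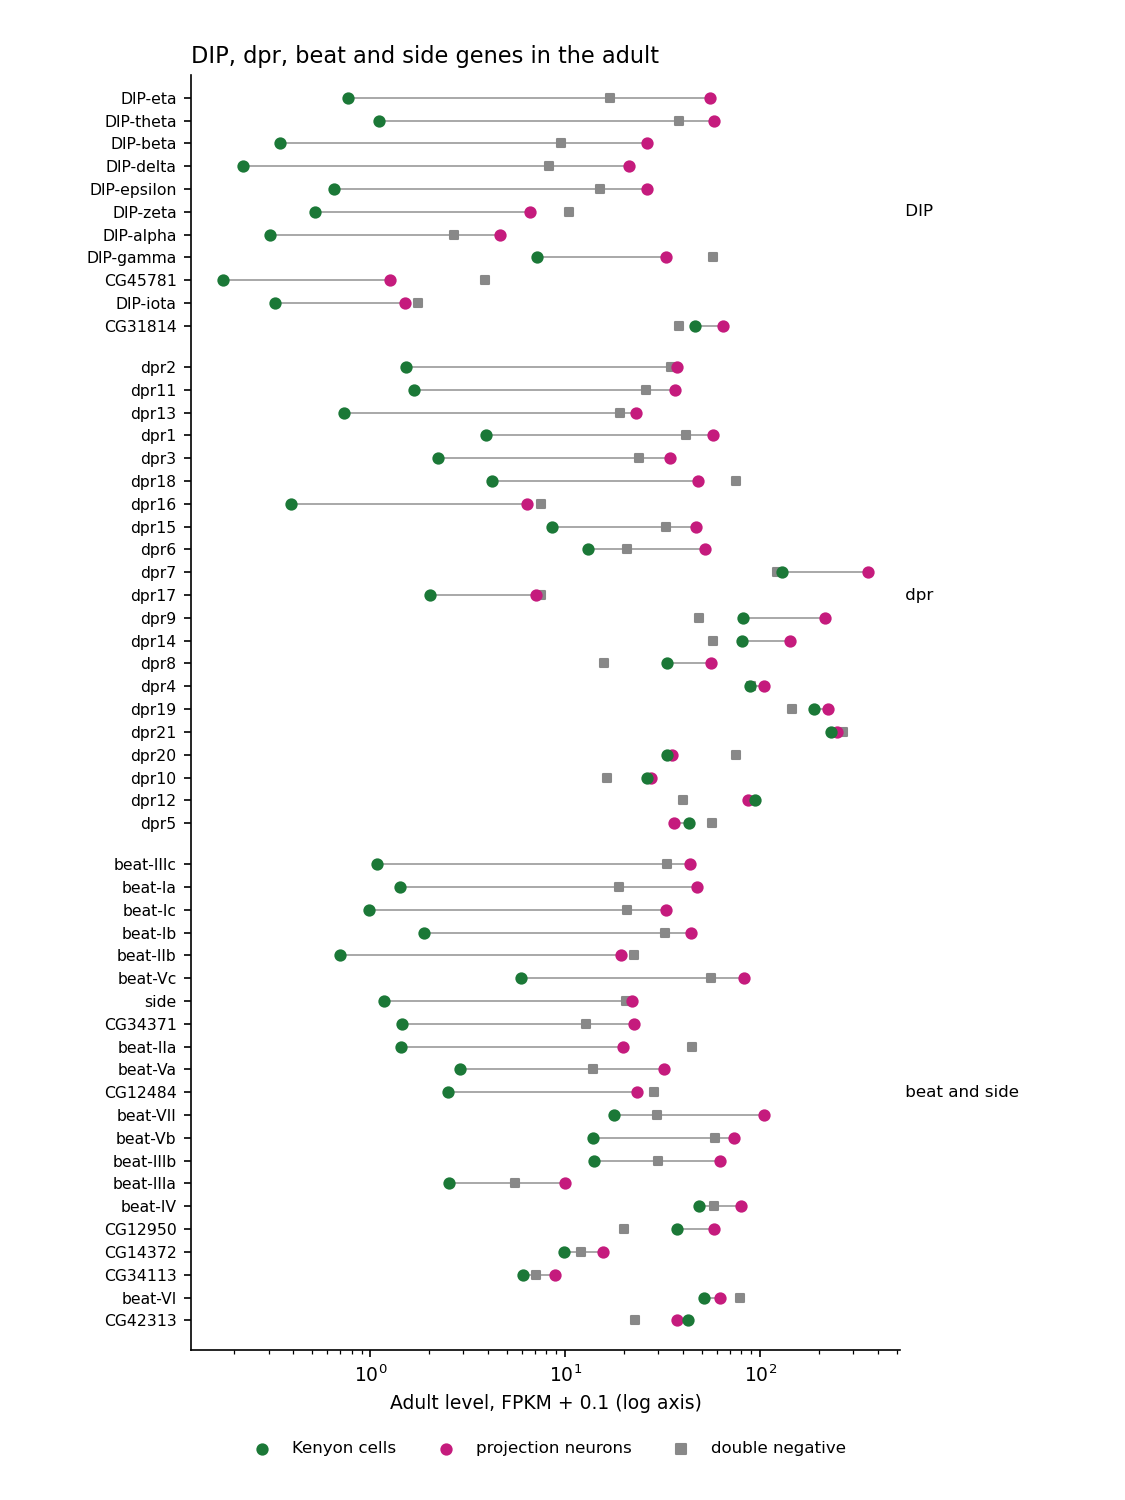
Adult levels of the kept DIP, dpr, beat and side genes in Kenyon cells, projection neurons and double negative cells, as FPKM + 0.1 on a log axis, 1 row per gene, ordered within each family by the Kenyon cell minus projection neuron difference. Most Kenyon cell points lie left of both other points, and the lower rows of the dpr block, such as dpr10, dpr12 and dpr5, hold points close together.

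The remaining surface families were lower with exceptions. Of 36 other immunoglobulin genes 21 were lower and 2 higher (median -1.36, -0.72 with the length group medians subtracted), and the guidance list, which shares members with it, had 11 of 25 lower and 2 higher (median -0.85). The Slit receptor robo3 was at 1.79 FPKM in KC against 69.8 in PN and 48.7 in DN (-4.66), robo2 at 0.436, 13.5 and 11 (-3.33) and their ligand sli at 0.261, 16.2 and 7.28 (-3.77). Lac, an immunoglobulin protein of cell junctions (chromosome 2R, 12453190 to 12465630), went the other way, at 46.1 FPKM in KC against 0.0777 in PN and 18.3 in DN (5.45). CG15630, now fipi, was at 157, 60.3 and 21.8 FPKM (1.37), and in the guidance list the Wnt receptor fz at 33.6, 10.6 and 6.79 (1.57) and the actin regulator Mical at 40.3, 18.6 and 11.2 (1.07). Cadherins had 6 of 7 lower and none higher (median -2.24), with CadN, N-cadherin, at 3.93, 34.2 and 6.18 FPKM (-2.84) and Cals at 97.1, 350 and 54.8 (-1.84). Leucine-rich repeat genes had 8 of 20 lower and 1 higher (median -0.82), with rdo at 1.53, 69.2 and 31.7 FPKM (-4.79) and 18w, a Toll family receptor, at 19.3, 7.53 and 9.79 (1.25). Teneurins, neurexin and neuroligins had 3 of 7 lower and none higher (median -0.84), namely Ten-m, Nlg4 and Ten-a (-2.86, -2.42 and -1.31, the last -0.68 with the length group's median subtracted).

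Heparan sulfate proteins, which hold growth factors at the cell surface, contained opposite members of 1 family. The glypican dally was at 2.17 FPKM in KC against 171 in PN, with 17.4 in DN (-5.76), and the other glypican, dlp, at 20.4, 0.968 and 1.98 (3.44). The sulfatase Sulf1 (chromosome 3R, 16310542 to 16339575), which trims these chains outside the cell, was at 1.19, 143 and 20.7 FPKM (-6.04). In all 7 of 18 genes were lower and 2 higher, with a median of -0.37. TGF-beta genes had 3 of 15 lower and none higher (median -0.39), among them the immunoglobulin gene plum (0.693, 16 and 4.33 FPKM, -3.33). Notch and Wnt genes had 4 of 18 lower and 2 higher (median 0.00), fz3 and fz, with fz3 at 7.5, 0.982 and 1.42 FPKM (2.10). In both the TGF-beta list and the Notch and Wnt list, the share lower lay near the 19.9% of all kept genes.

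Among housekeeping genes, those of cytosolic ribosomal proteins and the proteasome leaned the opposite way by their medians. The other lists of this paragraph had medians slightly below 0. Of 85 kept genes of cytosolic ribosomal proteins 22 were higher in KC by 2-fold or more and none lower, with a median of 0.81 that stayed at 0.68 after subtraction of the length group medians. RpL21 was at 877 FPKM in KC against 309 in PN, with 434 in DN (1.5) and RpL15 at 728, 281 and 417 (1.37). Of 32 kept proteasome genes 5 were higher and none lower, with a median of 0.79. Of all kept genes 12.1% were higher and 19.9% lower, so the proteasome list differed more in its median than in its share higher. Rpn5 was at 93.2, 36.8 and 62.8 FPKM (1.32) and Prosalpha3 at 212, 86.7 and 155 (1.28). For both lists the PN level lay below that of KC and DN, with medians of KC minus DN of 0.12 and 0.10 and of PN minus DN of -0.64 and -0.62. Mitochondrial ribosomal protein genes (median -0.21, 3 of 73 lower), subunits of oxidative phosphorylation (-0.31, 2 of 70 lower) and vacuolar proton pump subunits (-0.20, 2 of 18 lower and 1 higher, 0.00 with quantile normalization) differed little. Tubulin and microtubule genes were close as well (median -0.25, 2 of 28 lower and 2 higher).

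Glycolysis genes were lower in KC in 11 of 25 cases and higher in 1, with a median of -0.74. The glucose transporter Glut1 was at 13.7 FPKM in KC against 93.3 in PN, with 18.9 in DN (-2.68) and the phosphofructokinase gene Pfk at 62.2, 234 and 165 (-1.89). The 1 higher gene was ImpL3, lactate dehydrogenase (now Ldh), at 16, 0.752 and 2.77 FPKM (3.27).

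Heat shock genes stood higher in KC, with 10 of 22 at least 2-fold higher, 1 lower and a median of 0.93. Hsp26 was at 4408, 1008 and 1245 FPKM across KC, PN and DN (2.13) and Hsp83 at 4953, 1876 and 1867 (1.40), both chosen after their values were seen. Hsp70Bbb was at 30.7, 0.393 and 0.392 FPKM (4.51), Hsp70Ba at 18.5, 2.23 and 2.58 and Hsp70Bb at 350, 61.6 and 37.4. The Hsp70 copies are nearly identical, and how the counting split their reads is not given in the sources used here. Of 21 stress and sorting response genes 4 were higher and 3 lower (median 0.12). Within it, the glutathione transferase genes GstD11 (756, 2.03 and 9.41 FPKM, 7.97) and GstD1 (454, 11.9 and 41.4, 5.14) stood out, while the cell death gene rpr was at 0.876, 3.77 and 3.05 FPKM (-1.35). At 45 h APF the difference was 6.35 for GstD11 and -0.47 for GstD1. Glial genes had 3 of 10 kept members higher in KC and 1 lower (median 0.50), with nrv2, a sodium pump subunit, at 46.6 FPKM in PN and a difference of 1.15, and alrm, of astrocytes, at 8.04, 3.52 and 67.9.

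**Figure D4:**
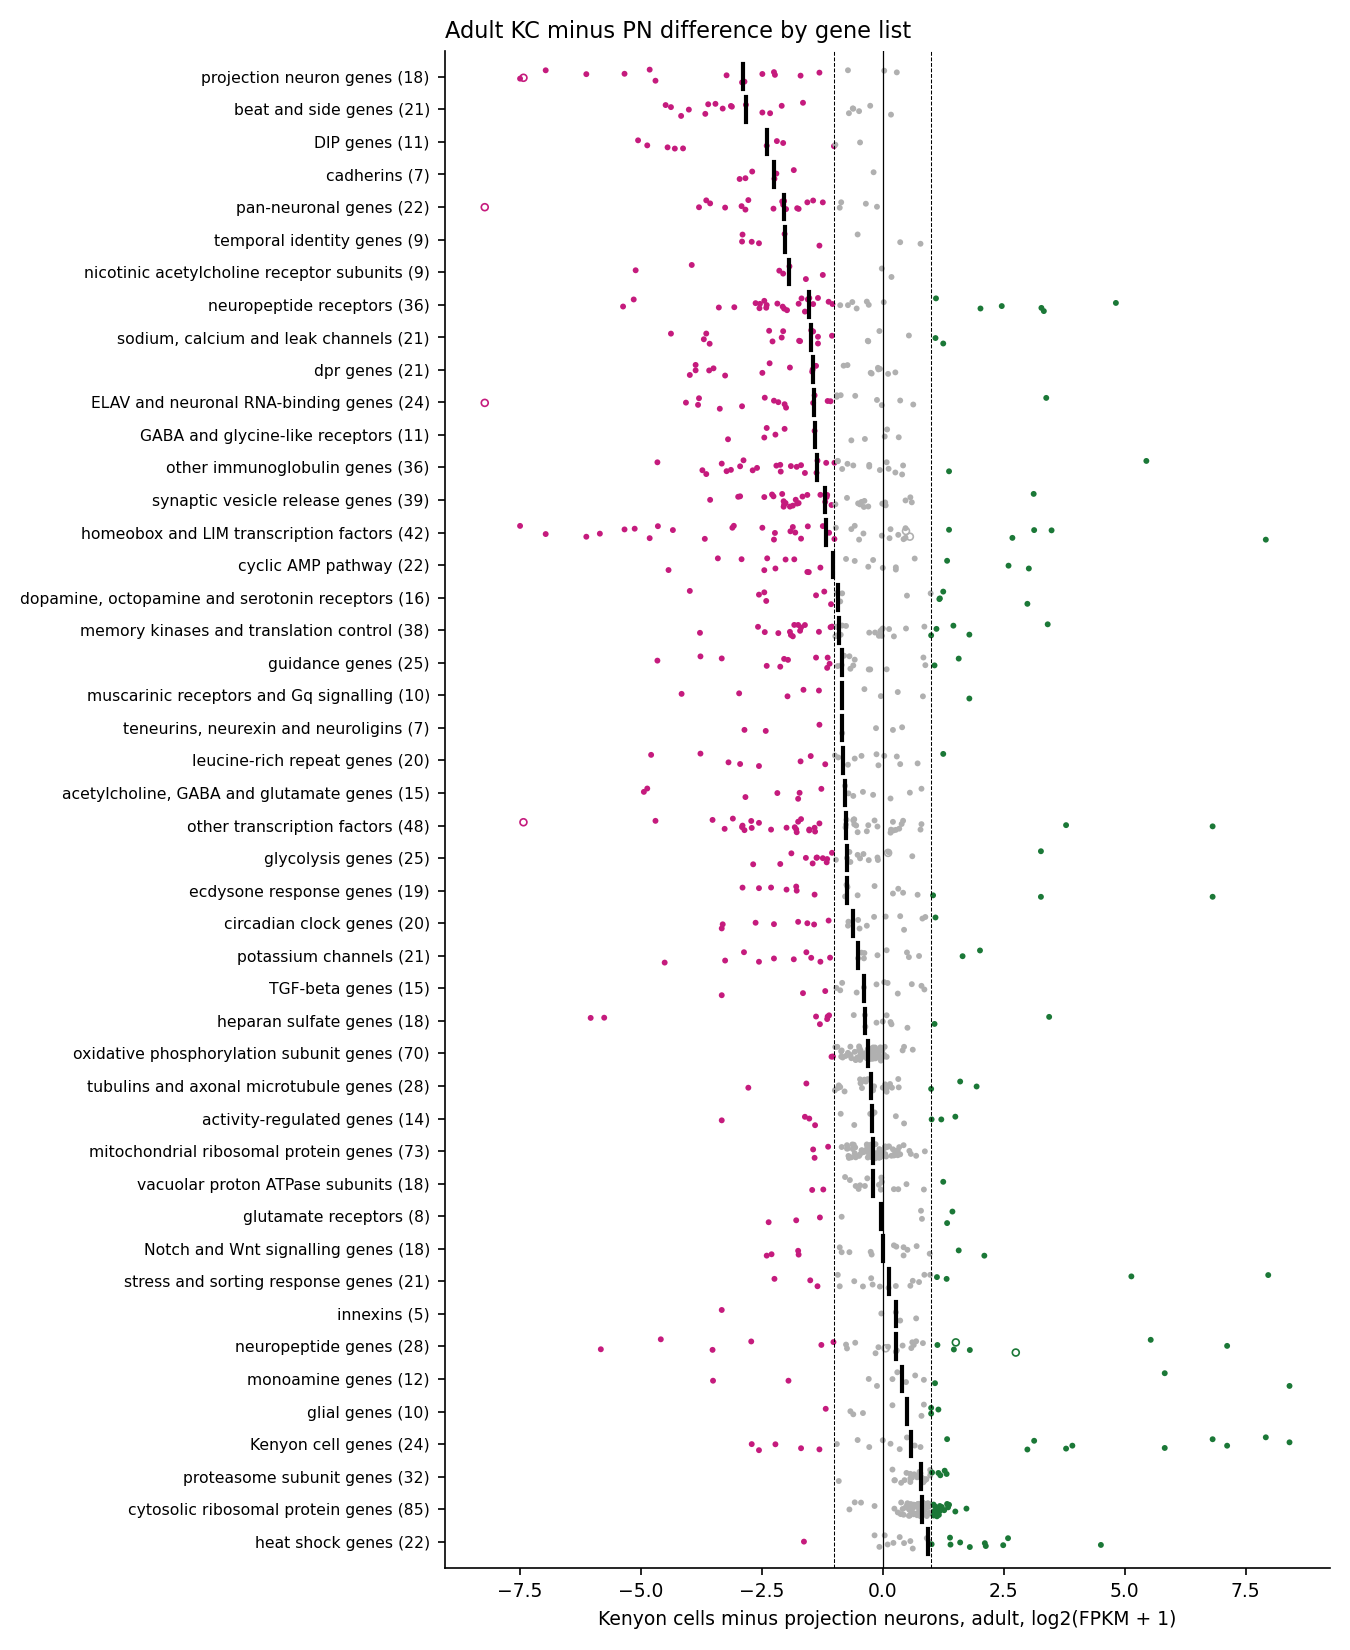
Adult Kenyon cell minus projection neuron difference in log2(FPKM + 1) for the kept genes of 46 gene lists, 1 point per gene, with the list median as a black bar and dashed lines at 2-fold; open points are genes listed at 0 in 1 of the columns, and numbers of kept genes stand in brackets. Projection neuron, beat and side, and DIP genes have the lowest medians (-2.88, -2.83 and -2.40) and heat shock and cytosolic ribosomal protein genes the highest (0.93 and 0.81).

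Beyond the lists, the genes farthest apart included enzymes and RNAs of no shared family. CAH2, a carbonic anhydrase (chromosome 3L, 12177601 to 12183347), was at 304 FPKM in KC against 0.813 in PN and 6.16 in DN (7.39). Nep1, a neprilysin that cuts peptides outside the cell, was at 212, 0.999 and 21 FPKM (6.74). PH4alphaNE1, a prolyl hydroxylase subunit, was at 101, 0.118 and 1.04 FPKM (6.51), the gustatory receptor gene Gr77a at 86.5, 0.201 and 0.873 (6.19), and TTLL3A, a tubulin-modifying ligase, at 70.3, 0.332 and 1.36 (5.74). For these 5 genes both PN and DN lay far below KC. CG30158 (6.15), CG7214 (5.65) and the noncoding CR44832 (6.12) completed the 15 highest together with ey, prt, Hr51, sNPF, GstD11, DAT and Nplp3.

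At the low end, ST6Gal, the sialyltransferase (now SiaT; chromosome 2R, 24691422 to 24694386), was at 2.76 FPKM in KC against 585 in PN and 55.7 in DN (-7.28). The secreted protein gene nolo was at 1.6, 204 and 42.1 FPKM (-6.30). CG14946, now firl, was at 0.298, 125 and 30.5 FPKM (-6.61). CG8861 (-6.27), CG4168 (-6.15), CG15537 (-5.87) and CG17193 (-5.83) followed, as did the noncoding CR44320 (-6.09), whose locus overlaps another gene. In each of the first 3 cases DN lay between the other populations.

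The share of genes past 4-fold differed by class of RNA. Of 7668 protein coding genes 2.02% were higher in KC and 7.07% lower. Of 175 kept snoRNA genes 33 (18.9%) were higher and 47 (26.9%) lower, and of 93 miRNA genes 17 (18.3%) and 33 (35.5%). Of 282 long noncoding genes 13 (4.61%) were higher and 46 (16.3%) lower. Short RNAs are poorly caught by the polyA selection used, and the highest levels against a listed 0 were all of this kind apart from fne: mir-981 was at 386 FPKM in KC and listed at 0 in PN, and mir-1008 was at 750 FPKM in PN and listed at 0 in KC. CR40469, the most abundant gene of the KC column, was at 48849 FPKM in KC against 5863 in PN, with 8711 in DN, and MRE16 at 29216, 3210 and 4691, both chosen after their values were seen. The 10 highest genes held 19.7% of the KC column and 11.5% of the PN column.

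The same pair was then set beside the 45 h APF stage, where KC and PN have 1 library each. Stage, sequencer and read length (50 bases on a HiSeq for adults, 75 on a NextSeq for pupae, per the labels) cannot be told apart. At 45 h APF, 2.30% of 8603 genes were higher in KC by 4-fold or more and 7.06% lower. Of the 223 genes higher in adults, 175 were kept at 45 h APF and 66 (29.6% of the 223) were 4-fold higher there too, and of the 690 lower, 546 were kept and 152 (22%) were 4-fold lower. Of the 24 Kenyon cell genes 9 were 2-fold or more higher at both stages, and of the projection neuron genes 11 were 2-fold or more lower at both. Among those far apart at both, ey differed by 6.69 at 45 h APF and 7.92 in adults, Hr51 by 8.11 and 6.82, and otp by -4.71 and -7.50. Other Kenyon cell genes were apart at 45 h APF and level in adults, with Mef2 at 3.15 and 0.16, Pka-C1 at 3.16 and 0.00, and Pka-R2 at 3.78 and 0.66. For sNPF the difference was -1.45 at 45 h APF and 7.12 in adults. Across the 7778 genes kept at both stages Pearson's r of the differences was 0.48, a description across genes that are not independent.

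Several neuronal lists were level at 45 h APF and apart in adults. For pan-neuronal genes the median was -0.26 at 45 h APF and -2.05 in adults, for nicotinic subunits -0.29 and -1.93, and for vesicle release genes 0.02 and -1.19. SK, for example, was at 2.08 FPKM in KC against 2.30 in PN at 45 h APF, and at 5.87 and 155 in adults. The beat and side genes were already more than 2-fold apart by their median at 45 h APF, at -1.34 there and -2.83 in adults. DIP genes lay just within 2-fold at 45 h APF, at -0.98, and at -2.40 in adults. Ribosomal protein genes had a median of 0.00 at 45 h APF and 0.81 in adults. Glial genes had the opposite sign at the earlier stage, with a median of -2.93 there, where alrm was at 9.7 FPKM in KC against 388 in PN. The part of glial RNA in the 45 h APF values was not tested, and in adults alrm was at 8.04 and 3.52 FPKM.

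**Figure D5:**
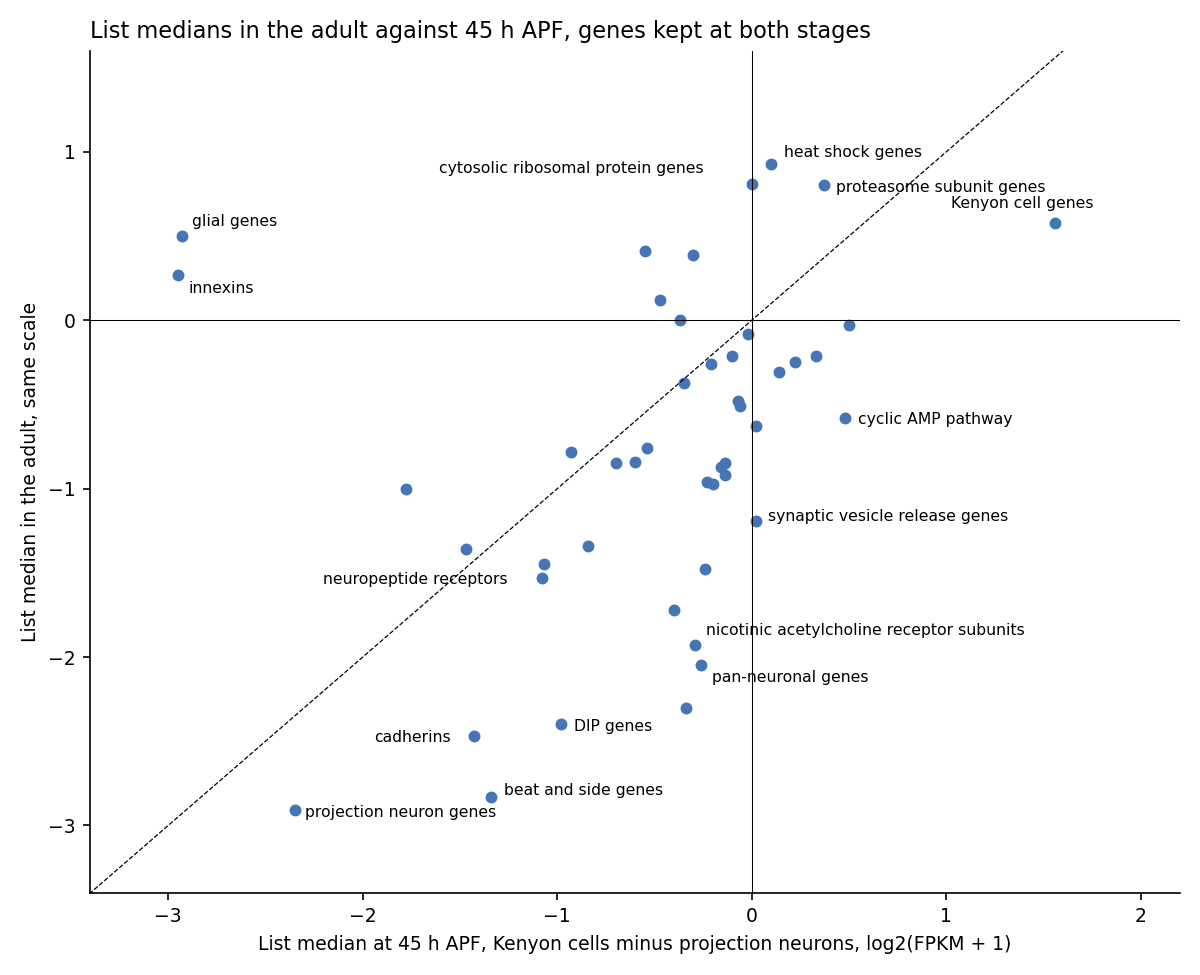
Median Kenyon cell minus projection neuron difference of each gene list at 45 h APF (x axis) and in adults (y axis), in log2(FPKM + 1), over the genes kept at both stages; each point is 1 list and the dashed line is equality. Pan-neuronal genes, nicotinic subunits and vesicle release genes lie near 0 on the x axis and at -2.05, -1.93 and -1.19 on the y axis, and glial genes and innexins lie far to the left.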

How the data were processed

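RNA was measured in sorted Kenyon cells, projection neurons and double negative cells of brains without optic lobes. The deposited FPKM values were made by the authors, with TopHat, Cufflinks and the build dm6 per the submitters' processing notes, without versions, and the authors averaged the 2 adult libraries of each cell type before deposit. Per the labels, polyA RNA went through SmartSeq V2, a method that does not mark strand, with 25 M reads planned per library. The depth behind the averages is unknown, so no interval is given.

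From these values, 5 lines with a date for a gene name were dropped, leaving 16854 genes. Names were then matched to the RefSeq gene annotation (12785 by symbol, 3914 by synonym, 155 unmatched), which gave current names, RNA classes and coordinates. Of the matched genes, 99.0% overlapped the locus in the table. Exon lengths came from Ensembl release 115. The filter was a mean of 1 FPKM over the 3 adult columns, and log2(FPKM + 1) differences were taken in python 3.11.15 with pandas 2.3.3. A gene list is described by its counts past 2-fold and its median. These are to be read beside those of all kept genes (12.1% higher, 19.9% lower and a median of 0.01). The 46 lists hold 1219 genes (10 entries have no line), overlap in part, and were chosen, like the comparison itself, with earlier results of these data known. Named genes were the cell type markers, the 15 highest and 15 lowest differences above 0 in both columns, the 3 highest and 3 lowest of each list, every member of a list with at most 12 kept, genes 4-fold opposite at 45 h APF, and the 5 highest genes listed at 0 in the other column. Others are said to be chosen after their values were seen, or are listed to complete a count. Other pseudocounts, filters and scalings were tried. No test was run.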

Additional observations from a re-analysis of the deposited data

Results flagged for a closer look

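The results below had opposite signs in adults and at 45 h APF. The difference between the stages was not tested, each value rests on single columns, and stage and sequencer cannot be told apart. The KC minus PN difference in log2(FPKM + 1) of sNPF was 7.12 in adults (1343 against 8.68 FPKM) and -1.45 at 45 h APF (12.9 against 37.0). For dnc it was -2.22 in adults (28.6 against 137 FPKM) and 1.52 at 45 h APF (8.26 against 2.22). CG11438 had -2.27 in adults (0.394 against 5.74 FPKM) and 2.88 at 45 h APF (10.7 against 0.585), and CG14340 had 3.01 (20.5 against 1.68) and -4.26 (4.79 against 110).

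Among glial genes, alrm had 1.00 in adults (8.04 against 3.52 FPKM, or 0.75 with the length group's median subtracted) and -5.19 at 45 h APF (9.7 against 388), and nrv2 had 1.15 (46.6 FPKM in PN) and -3.21 (100 against 936). The sugar transporter gene Tret1-1 had -1.18 in adults (0.616 against 2.65 FPKM) and 1.07 at 45 h APF (1.78 against 0.324).

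Of the lists, over genes kept at both stages, glial genes had a median of 0.50 in adults and -2.93 at 45 h APF, and innexins 0.27 and -2.95. Cyclic AMP pathway genes had -0.58 and 0.48. Vesicle release genes had -1.19 and 0.02.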

How the results depend on the processing

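Counts past a fold were taken again under 7 alternatives, and under 2 more added after the data were seen (genes listed at 0 left out, and each length group's own median subtracted). With a pseudocount of 5 the genes at least 4-fold higher and lower became 113 and 321, and those at least 2-fold higher and lower became 683 and 1101. Under the other 8 alternatives all 4 counts stayed within 1.5 times of 223, 690, 1030 and 1696. Quantile normalization moved the median of all genes from 0.01 to 0.12 and the share of 4-fold differences that were lower from 75.6% to 68.8%. The number of lists with a median at least 2-fold lower was 16, and between 11 (pseudocount 5) and 19 (pseudocount 0.1) elsewhere. Of 46 list medians, 27 kept their sign and their side of 2-fold under all 9 alternatives, as did 231 of 328 named genes. No median or gene past 2-fold changed sign; the 9 changes of sign among smaller medians were those of glutamate receptor (0.28), circadian clock (0.01), TGF-beta (0.01) and Notch and Wnt genes (0.32) after length subtraction, TGF-beta genes (0.03) and innexins (-1.48, from fewer genes) with a filter of 5 FPKM, vacuolar pump (0.00) and Notch and Wnt genes (0.06) with quantile normalization, and Notch and Wnt genes, at 0.00 to 2 decimals both times, with a pseudocount of 0.1. The cyclic AMP median was -0.70 with a pseudocount of 5, -0.73 with no filter and -0.76 with a filter of 5 FPKM, and that of cadherins was -0.12 with no filter. No paired analysis was possible because the adult columns are averages of the replicates, and for the same reason no replicate could be left out. Low genes are limited most, since 1 FPKM is added to each value.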

Other observations

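Among the 40 highest and 40 lowest differences, several genes lay near each other on a chromosome, though not always as direct neighbours. This pattern was noticed after the values were seen. On chromosome 3R, the glutathione transferase genes GstD9 (12366163 to 12367564; 28.0 FPKM in KC against 1.02 in PN), GstD1 (12367817 to 12369268; 454 and 11.9) and GstD11 (12383336 to 12385624; 756 and 2.03) were followed by CG34402, now Sol1 (12386249 to 12402902; 504 and 14.4). The tetraspanin genes lbm (chromosome 2R, 7049238 to 7051964; 43.5 and 1.42 FPKM) and Tsp42En (7052747 to 7054399; 74.2 and 1.92) were neighbours too. On chromosome 2L, the cuticle protein gene Acp1 (7740562 to 7741537), CG7214 (7743682 to 7744839) and CG7203 (7752170 to 7753186) stood at 19.6, 61.4 and 47.0 FPKM in KC and at 0.178, 0.244 and 0.396 in PN. At 45 h APF Acp1 and CG7203 were listed at 0 in both columns and CG7214 was at 1.03 and 1.06 FPKM. At that stage GstD9, GstD1, GstD11 and CG34402 differed by 0.37, -0.47, 6.35 and 8.80, and lbm and Tsp42En by -0.13 and 3.06.

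At the low end, the lipophorin receptor genes LpR1 (chromosome 3R, 25741348 to 25763105) and LpR2 (25698727 to 25740465) stood at 3.56 and 0.875 FPKM in KC, against 134 and 52.8 in PN. The Iroquois genes mirr and ara on chromosome 3L were at 0.133 and 0.344 FPKM in KC against 141 and 45.9 in PN. Between them lies caup (12609631 to 12621798), at 0.0818 FPKM in KC against 20.9 in PN, which is not among these 80 genes. Cbp53E, a calcium-binding protein gene, was at 38.7 FPKM in KC against 1289 in PN, with 324 in DN, and the globin gene glob1 at 0.902, 82.6 and 26.4. How often genes this near each other would be found among any 80 genes was not counted. The noncoding gene noe had 36700 FPKM in KC, 39008 in PN, and a listed 0 in DN.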
